A study of Mus musculus with 21 samples.

Results

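The 10 genes described here make the mouse MHC class I antigen presentation pathway and its inducible proteasome: the heavy chains H2-K1 and H2-D1, the light chain B2m, the peptide transporter genes Tap1 and Tap2, the loading factor Tapbp, the immunoproteasome subunits Psmb8, Psmb9 and Psmb10, and the regulator Nlrc5. They were taken by gene symbol, as classical members of the pathway, and the set was drawn up with earlier results of these data known. All 10 were found among the 55573 genes of the count table, and all 10 passed the filter on low counts that left 15432 genes for testing. Each of the 10 symbols belonged to 1 row.

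RNA from 21 cultured samples of E0771, a mouse mammary carcinoma line, was sequenced, with 3 libraries in each of 7 groups, all of them carrying GFP. The series asks what ZBTB18, a zinc finger transcription factor, does to gene expression. The groups were the untreated parental cells (E0771GFP), cells with an empty vector, cells overexpressing ZBTB18, and 2 groups that overexpress ZBTB18 together with a doxycycline-inducible TGFBR2, the type II TGF-β receptor. Those 2 receptor groups both received doxycycline (labelled 1 mg/mL), and then either vehicle or TGF-beta1 (2 ng/mL). The last 2 groups, M11GFP and M12GFP (here M11 and M12), are untreated lines grown out of spontaneous lung metastases of E0771GFP. Each group is 1 line, so a difference between lines is a difference between those lines and not between kinds of line. The vehicle group differs from the ZBTB18 overexpression group by the receptor construct and by doxycycline. Its Zbtb18 level was also lower (values below), and these differences cannot be told apart. The labels do not say that replicates were separate cultures, so p-values measure the spread between these samples, which may be technical. In bulk RNA, fewer cells that express a gene and less RNA per cell cannot be told apart.

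MHC class I molecules show peptides from inside the cell to CD8+ T cells. The proteasome cuts proteins into peptides, TAP carries them into the endoplasmic reticulum, tapasin helps to load them onto a heavy chain paired with β2-microglobulin, and the loaded complex goes to the surface. Interferon-γ raises the pathway as a whole, in part by replacing the 3 catalytic subunits of the standard proteasome with PSMB8, PSMB9 and PSMB10, and NLRC5 is the factor that activates class I genes at their promoters. Tumour cells that lose class I expression can escape CD8+ T cells.

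Library totals ran from 24208569 counts in M11 replicate 3 to 90518872 in vehicle replicate 1. Gm42418 took 14% of all counts in parental replicate 1 and no more than 0.0918% elsewhere; leaving that gene out changed no call for the 10 genes. Zbtb18 averaged 113 CPM (read counts scaled for library size) in the ZBTB18 overexpression group and 25.1 CPM in the empty vector cells. It averaged 82.9 CPM in the vehicle group and 95.2 CPM in the TGF-beta1 group. All libraries of the ZBTB18 overexpression group (at least 106 CPM) were above those of the vehicle group (at most 87.0 CPM). Tgfbr2 averaged 588 CPM in the vehicle group, 1.74 CPM in the ZBTB18 overexpression group and 26.6 CPM in the empty vector cells. Both constructs were thus seen in the libraries labelled with them. Tgfbr2 averaged 13.8 CPM in the parental cells, 21.4 CPM in M11 and 19.3 CPM in M12. The ZBTB18 overexpression group thus had the lowest Tgfbr2 mean of the 7 groups, and the cause was not tested. Of 7 blood cell markers, Cd3e had 0 reads in all 21 libraries, and Ptprc, the pan-leukocyte gene, had 9 reads in all of them together. The myeloid genes Itgam and Adgre1 had 22 and 24 reads in all. The B cell gene Cd79a and the myeloid gene Lyz2 had reads in every library, at up to 8.61 and 3.80 TPM. Cd79a was 18.7-fold higher in M12 than in the parental cells (edgeR adjusted p = 9.6e-10) and 2.84-fold lower in M11 than in M12 (adjusted p = 0.000172). The classical class II gene H2-Ab1 had 3 reads in all. Of the epithelial markers, Krt8 was present at 80.9 to 272 TPM (a level scaled for transcript length) and Epcam at 0.11 to 3.23 TPM, while Krt19 and Cdh1 were at most 0.09 and 0.07 TPM. Krt7 was at most 0.65 TPM, and Krt18 reached 4.33 TPM at a median of 0.04 TPM. Krt18 was 9.08-fold lower in M11 than in M12 (edgeR adjusted p = 2.4e-05). Apart from Krt8, these epithelial markers were thus low in the labelled carcinoma cells. The fibroblast-associated gene Col3a1 ran from 5.49 to 314 TPM, at a median of 51.2 TPM.

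The genes lie at 4 places in the genome (build GRCm38, the same as mm10, GENCODE vM21). Inside the MHC on chromosome 17, Psmb9, Tap1, Psmb8 and Tap2 follow each other within 34335 bases, at chr17:34181987-34216321. H2-K1 (ENSMUSG00000061232) lies at chr17:33996017-34000347 on the minus strand, Tapbp at chr17:33915899-33929292 and H2-D1 (ENSMUSG00000073411) at chr17:35262730-35267499. Outside the MHC, B2m lies at chr2:122147686-122153083, Psmb10 at chr8:105935735-105938444 and Nlrc5 at chr8:94434356-94527272. RefSeq promoter windows (GRCm38.p6) were matched for 8 of the 10 genes; Tap2 and Nlrc5 had no entry. The 250 bases before the RefSeq start site are printed for 5 of the 8 genes with a window, as examples. RefSeq and GENCODE starts differ for some genes. The printed bases of H2-D1 and of Psmb8 (GENCODE start chr17:34197721) lie inside the GENCODE spans of these genes. Capitals mark every match, on either strand, to the interferon-stimulated response element (GAAA, any 2 bases, then GAAA), the gamma-activated sequence (TTCNNNGAA), the NF-κB consensus, the core of the X2 box (TGACGC) or the core of the Y box (CCAAT, which reads ATTGG on the other strand).
H2-K1, chr17:34000348-34000597, minus strand: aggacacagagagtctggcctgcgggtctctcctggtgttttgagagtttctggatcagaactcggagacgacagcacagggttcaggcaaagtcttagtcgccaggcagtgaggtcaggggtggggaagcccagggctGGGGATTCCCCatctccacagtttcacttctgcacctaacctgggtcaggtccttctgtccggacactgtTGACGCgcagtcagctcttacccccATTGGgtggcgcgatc
H2-D1, chr17:35262844-35263093, plus strand: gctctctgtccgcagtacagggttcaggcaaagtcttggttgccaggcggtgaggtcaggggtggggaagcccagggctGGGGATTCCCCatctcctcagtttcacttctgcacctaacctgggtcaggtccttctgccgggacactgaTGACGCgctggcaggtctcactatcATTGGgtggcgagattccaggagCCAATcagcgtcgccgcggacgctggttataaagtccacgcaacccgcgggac
B2m, chr2:122147437-122147686, plus strand: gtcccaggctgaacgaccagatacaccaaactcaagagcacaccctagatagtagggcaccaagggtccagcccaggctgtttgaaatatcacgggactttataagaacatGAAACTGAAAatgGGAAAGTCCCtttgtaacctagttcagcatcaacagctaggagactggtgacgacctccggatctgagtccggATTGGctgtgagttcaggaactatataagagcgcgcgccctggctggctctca
Tap1, chr17:34187306-34187555, plus strand: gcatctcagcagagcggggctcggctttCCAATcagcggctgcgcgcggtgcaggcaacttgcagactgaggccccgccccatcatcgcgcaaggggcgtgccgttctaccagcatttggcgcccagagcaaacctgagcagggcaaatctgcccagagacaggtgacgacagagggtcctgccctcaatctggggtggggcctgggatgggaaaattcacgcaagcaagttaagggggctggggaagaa
Psmb8, chr17:34197945-34198194, plus strand: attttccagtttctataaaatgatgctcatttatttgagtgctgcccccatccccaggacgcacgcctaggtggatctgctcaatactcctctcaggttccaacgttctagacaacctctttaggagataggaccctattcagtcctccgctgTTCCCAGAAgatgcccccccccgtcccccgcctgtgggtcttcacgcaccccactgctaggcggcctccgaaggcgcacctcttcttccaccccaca

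H2-K1 and H2-D1 carried the same NF-κB run, GGGGATTCCCC, followed in the same order by an X2 core and a Y core. Of the marked patterns, the printed Tap1 bases held only a Y core and the printed Psmb8 bases only a gamma-activated sequence. The Tap1 window shares 225 bases with that of Psmb9, which is read from the other strand (chr17:34187331-34187555), so these 2 genes start back to back. In windows of 300 bases that run on to 50 bases past the start, the NF-κB consensus was matched in 3 of the 8 genes and in 8.46% of all 32851 RefSeq windows, and the X2 core in 2 of 8 and in 7.4%. The interferon-stimulated response element was matched in 1 of 8, B2m, and in 3.44% of all windows, the gamma-activated sequence in 1 of 8, Psmb8, and in 8.3%, and the Y core in 6 of 8 and in 37.4%. CATCTG, the core of the E-box that ZBTB18 is known to bind, was matched in Psmb10 and H2-D1, 2 of 8, and in 17.2% of all windows. H2-K1 has 2 RefSeq starts, and the bases before 1 of them are printed. The 8 genes thus had 9 windows, and the shares of all RefSeq windows count windows, not genes. Counted by window, the NF-κB consensus was matched in 4 of 9, the X2 core in 3 of 9 and the Y core in 7 of 9. A match describes the letters and is not evidence of a bound factor. Only these exact patterns were searched, so a window without a match may still hold a variant of the element. This includes H2-K1 and H2-D1 for the interferon-stimulated response element.

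Averaged over the 21 libraries, B2m was the most abundant transcript of the pathway at 703 TPM, followed by H2-D1 at 424 TPM. Tapbp (89.8 TPM), H2-K1 (84.2 TPM), Psmb8 (52.6 TPM) and Tap2 (44.6 TPM) were intermediate. Psmb10 (28.9 TPM), Tap1 (20.2 TPM), Nlrc5 (7.20 TPM) and Psmb9 (5.26 TPM) were the scarcest. All 10 genes differed among the 7 groups in a joint edgeR quasi-likelihood F-test (Benjamini-Hochberg adjusted p under the threshold of 0.05, the largest 0.0083 for H2-K1), but 92.7% of all tested genes did so too. The ratio of the highest to the lowest group mean was 6.13 for Psmb9, 4.52 for Nlrc5, 3.44 for Tapbp and 3.41 for Psmb10. It was 2.51 to 2.59 for Tap1, Tap2 and Psmb8, and 1.70 to 1.93 for H2-D1, B2m and H2-K1. The surface chains thus spanned a narrower range of group means than the regulator and the scarcest immunoproteasome subunit.

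**Figure D1:**
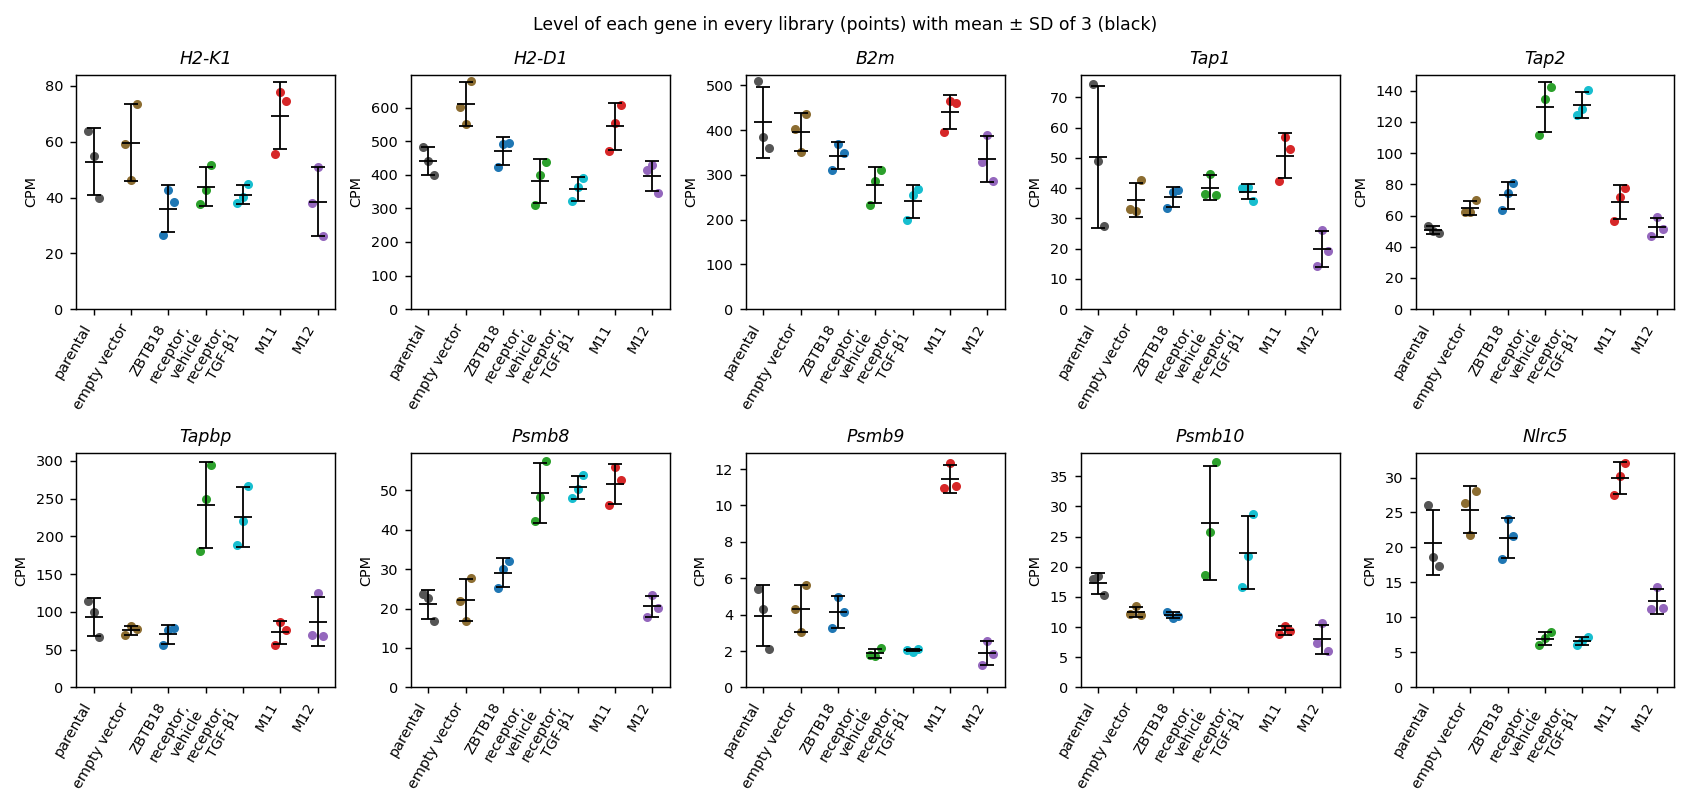
Level of each gene in CPM (vertical axis, linear from 0) in the 7 groups (horizontal axis); coloured points are libraries, and black bars are the mean ± SD of 3. Psmb9 was at 11 to 12.3 CPM in the 3 M11 libraries and at most 5.65 CPM in every other library, while Tap2, Tapbp and Psmb10 had their highest group means in the receptor groups.

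M11 and M12 come from the same parental cells and the same organ, and differed across the pathway. They also differed in Zbtb18, at 31.8 to 39.5 CPM in M11 and 53.0 to 70.6 CPM in M12, with a parental mean of 29.5 CPM. The part of Zbtb18 in the pathway difference was not tested. Of the 10 genes, 8 were higher in M11 and 0 were lower (edgeR, Benjamini-Hochberg adjusted p under 0.05), where 17.7% of all tested genes were higher and 17.8% lower, or 35.5% in either direction. The median log2 fold change of the 10 genes, M11 minus M12, was 0.65, against 0.00375 over all tested genes. Psmb9 differed most, and Tap1, Psmb8 and Nlrc5 by about the same log2 amount as each other. Tapbp and Psmb10 did not pass the test. Numbers shared between M11 and M12 libraries were also fitted as a replicate block, which left 8 higher and 0 lower. The count of higher genes fell to 6 when only the 6 libraries of the comparison were fitted, and to 6 when TPM were tested with limma.

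H2-K1, 1 of the 2 classical heavy chains, was at 55.6, 77.8 and 74.6 CPM in the M11 libraries and at 38.1, 51.0 and 26.3 CPM in M12. The libraries did not overlap, though M11 replicate 1 lay close to M12 replicate 2. The log2 fold change was 0.85 (SE 0.24, edgeR adjusted p = 0.0105). H2-D1, the other classical heavy chain, was at 470.1, 554 and 609 CPM in M11 and at 415, 429 and 345 CPM in M12, again without overlap. Its log2 fold change was smaller, 0.46 (SE 0.13, edgeR adjusted p = 0.00796), and it missed the threshold when TPM were tested with limma, with adjusted p up to 0.0606. Of the 75-base stretches of the H2-D1 transcript, 6.9% also occur in other genes, and 1.55% of those of H2-K1, so part of the heavy chain reads could have been shared out between related genes. The deposited counts of both were whole numbers in all 21 libraries.

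B2m encodes β2-microglobulin, which every class I heavy chain needs to reach the surface. It was at 397, 465 and 460.1 CPM in M11 and at 328, 389 and 286 CPM in M12. All M11 libraries were above all M12 libraries, but M11 replicate 1 exceeded M12 replicate 2 by little. The log2 fold change of 0.40 (SE 0.14, edgeR adjusted p = 0.0365) is the least firm of the 8 calls: it was lost in 7 of 16 alternatives, among them without M11 replicate 2, without M11 replicate 3, without M12 replicate 1 and without M12 replicate 3, with adjusted p up to 0.137. In TPM, B2m stood at 1.86 times H2-D1 in M11 and 1.87 times in M12, so the light chain and the main heavy chain kept nearly the same ratio in both lines. H2-D1 stood at 3.69 ± 0.356 times H2-K1 in M11 and 5.13 ± 1.28 times in M12 (SD, n = 3), with ranges that overlapped.

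TAP is a transporter of 2 subunits, and their genes differed by unequal amounts. Tap1 was at 42.4, 56.9 and 52.8 CPM in M11 and at 14.4, 26.1 and 19.1 CPM in M12. The gap between the lowest M11 and the highest M12 library was wider than the spread within M12, and the log2 fold change was 1.35 (SE 0.27, edgeR adjusted p = 0.000767). Tap2 was at 56.8, 71.8 and 77.7 CPM in M11 and at 47.2, 58.9 and 51.1 CPM in M12, where M12 replicate 2 lay above M11 replicate 1. Its log2 fold change was 0.39 (SE 0.12, edgeR adjusted p = 0.0119), and the call was lost without M11 replicate 3, without M12 replicate 1 and when only the 6 libraries of the comparison were fitted, with adjusted p up to 0.0712. The TPM ratio of Tap2 to Tap1 was 1.53 ± 0.121 in M11 and 2.73 ± 0.448 in M12 (SD, n = 3), without overlap. Tapbp, which encodes tapasin, was at 56.1, 86.9 and 75.6 CPM in M11 and at 69.6, 124 and 67.5 CPM in M12. These ranges overlapped, and the log2 fold change of -0.26 (SE 0.26, edgeR adjusted p = 0.472) did not pass.

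Among the immunoproteasome subunits, Psmb9 (LMP2) stood at 11, 12.3 and 11.1 CPM in M11 and at 1.25, 2.56 and 1.81 CPM in M12. The lowest M11 library was far above the highest M12 library, with a 6.05-fold difference between the fitted means. This is a log2 fold change of 2.60 (SE 0.29, edgeR adjusted p = 5.3e-07). Psmb8 (LMP7) was at 46.2, 55.9 and 52.7 CPM in M11 and at 18.0, 23.5 and 20.1 CPM in M12, with a wide gap between the lines. Its log2 fold change was 1.33 (SE 0.16, edgeR adjusted p = 2.3e-06). Psmb10 (MECL-1) was at 8.84, 10.2 and 9.28 CPM in M11 and at 7.28, 10.6 and 6.0 CPM in M12. Here M12 replicate 2 was above all M11 libraries, and the log2 fold change of 0.24 (SE 0.23, edgeR adjusted p = 0.445) did not pass. The 3 subunits replace 3 standard ones in the same particle, yet only Psmb8 and Psmb9 passed; whether Psmb10 differed from them in its response was not tested.

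Nlrc5 encodes the transactivator of class I genes. It was at 27.5, 30.2 and 32.1 CPM in M11 and at 11.2, 14.3 and 11.4 CPM in M12. Every M11 library was above every M12 library by more than the spread within either line, with a log2 fold change of 1.28 (SE 0.15, edgeR adjusted p = 1.4e-06). The calls for H2-K1, Tap1, Psmb8, Psmb9 and Nlrc5 held in all 16 alternatives tried for this comparison.

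The libraries of a line moved together across the pathway. M11 replicate 1 was the lowest of its 3 libraries for 10 of the 10 genes, where it was the lowest for 33.6% of all tested genes. M12 replicate 2 was the highest of its 3 for 10 of 10, against 39.3% of all tested genes. These same 2 libraries also had the lowest summed level of 14 interferon-induced genes in M11 (258 TPM, against 399.5 and 352) and the highest in M12 (278 TPM, against 168 and 174). The summed interferon-induced level therefore overlapped between the lines in 1 library each. The part of this spread in the difference between M11 and M12 was not tested. Without M11 replicate 1 or without M12 replicate 2, all 8 genes still passed. The 7 blood cell markers summed to 2.86 to 3.99 TPM in M11 and 9.01 to 12.6 TPM in M12, nearly all of it Cd79a and Lyz2, and the 4 endothelial markers to 1.92 to 2.86 TPM in M11 and 0.42 to 0.68 TPM in M12. Single endothelial markers went both ways: Pecam1 was higher in M11 (log2 fold change 3.16, edgeR adjusted p = 7.6e-09) and Kdr lower (-2.75, adjusted p = 0.000121). The 4 fibroblast markers summed to 240.4 to 344.5 TPM in M11 and 67.9 to 125 TPM in M12, with Dcn and Lum at or near 0. The part of these genes in the result was not tested.

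**Figure D2:**
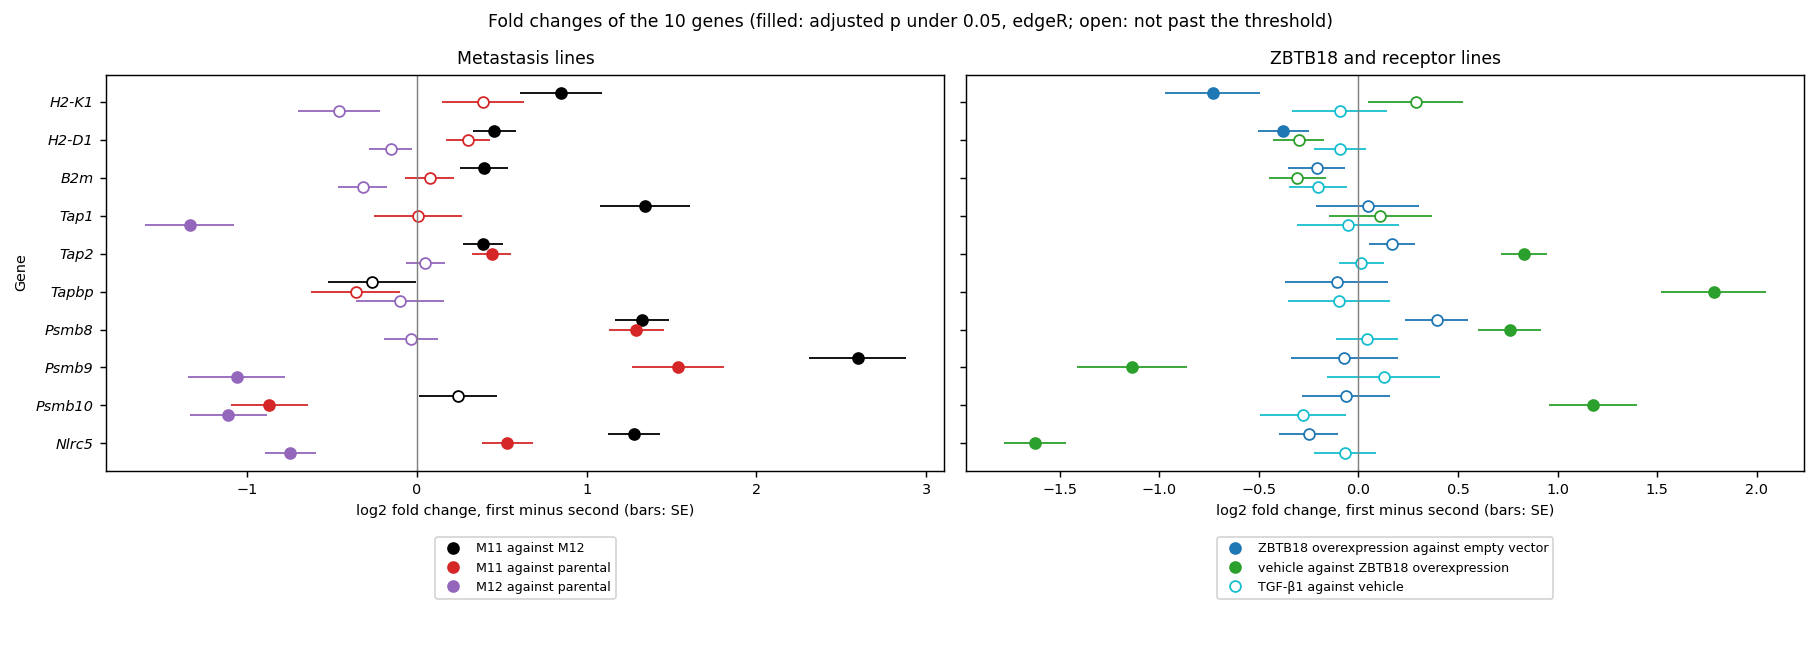
Log2 fold change of each gene (horizontal axis, first group minus second, bars are SE) in 3 comparisons of the metastasis lines (left) and 3 of the ZBTB18 and receptor lines (right); filled points passed the edgeR threshold and open points did not. In the M11 against M12 comparison 8 points are filled, all to the right of 0, and in TGF-β1 against vehicle none is filled.

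Each metastasis line was next set against the parental cells, which both comparisons share. In M11, 4 of the 10 genes were higher and 1 was lower, where 20.8% of all tested genes were higher and 20% lower, 40.7% in all. In M12, 0 were higher and 4 were lower, where 24.9% of all tested genes were higher and 25.2% lower, so 4 of 10 in either direction is below the 50.1% of all genes that differed. Psmb8 and Tap2 were higher in M11 and near parental levels in M12, while Tap1 was lower in M12 and near the parental level in M11.

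The parental libraries stood at 5.41, 4.31 and 2.10 CPM for Psmb9. They lay below all M11 libraries, and the lowest of them overlapped M12. Psmb9 was higher in M11 (log2 fold change 1.54, SE 0.27, edgeR adjusted p = 0.000104) and lower in M12 (-1.06, SE 0.28, adjusted p = 0.00385), though the latter did not pass on TPM, with adjusted p up to 0.0681. Nlrc5, at 26.0, 18.6 and 17.4 CPM in the parental libraries, was likewise higher in M11 (0.53, SE 0.15, edgeR adjusted p = 0.00681) and lower in M12 (-0.75, SE 0.15, adjusted p = 0.000325); its M12 call was also lost on TPM, with adjusted p up to 0.0758. The parental range for Nlrc5 lay between the 2 lines and overlapped neither.

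Psmb8 was at 23.7, 22.6 and 16.8 CPM in the parental libraries, the range of M12. It was higher in M11 by 1.29 (log2, SE 0.16, edgeR adjusted p = 2.0e-06), and its M12 difference of -0.03 (SE 0.16, adjusted p = 0.883) did not pass. Tap2 was at 53.4, 49.9 and 48.5 CPM in the parental libraries and was higher in M11 by 0.44 (log2, SE 0.12, edgeR adjusted p = 0.00453). Psmb10 stood at 18.0, 18.4 and 15.3 CPM in the parental libraries, above all libraries of both metastasis lines. It was lower in M11 (log2 fold change -0.87, SE 0.23, edgeR adjusted p = 0.00435) and in M12 (-1.11, SE 0.23, adjusted p = 0.000388), the only one of the 10 genes that passed below the parental level in both.

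Tap1 varied most within the parental group, at 74.6, 49.1 and 27.6 CPM. Its lowest parental library was just above the highest M12 library, and the parental range enclosed that of M11. It was lower in M12 by a log2 fold change of -1.34 (SE 0.26, edgeR adjusted p = 0.000452), and M11 minus parental was 0.01 (SE 0.26, adjusted p = 0.988). Parental replicate 3 was the lowest of its 3 libraries for 10 of the 10 genes (40.7% of all tested genes), and parental replicate 1 was the highest for 9 of 10 (36.1%). The summed level of the 14 interferon-induced genes ran the same way, at 912, 786 and 399 TPM in parental replicates 1, 2 and 3, and the part of this spread in the comparisons with parental cells was not tested. Parental replicate 1 is also the library with the excess of Gm42418.

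The remaining class I genes did not pass against the parental cells. H2-K1 was at 63.9, 54.8 and 39.9 CPM in the parental libraries, H2-D1 at 483, 442 and 399 CPM, and B2m at 509, 384 and 360.1 CPM. These ranges overlapped both M11 and M12 for all 3 genes. H2-D1 in M11 was nearest to the threshold (log2 fold change 0.30, SE 0.13, edgeR adjusted p = 0.0648) and passed in 6 of 16 alternatives, among them without M11 replicate 1 and without parental replicate 1. B2m in M12 (-0.32, SE 0.14, adjusted p = 0.0706) passed in 3, among them without M12 replicate 2 and without parental replicate 3. H2-K1 in M12 (-0.46, SE 0.24, adjusted p = 0.124) passed in 2, among them without M12 replicate 2. Tapbp, at 115, 99.5 and 66.1 CPM, did not pass in either line.

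The transcript share of each immunoproteasome subunit in the pair it forms with the standard subunit it replaces is a measure within a library, computed from TPM. Psmb8 made 20.2%, 25.5% and 25.9% of the summed TPM of Psmb8 and Psmb5 in M11, and 10.1%, 12.6% and 12.4% in M12. The M11 share (23.9% ± 3.19, SD, n = 3) was 12.1 percentage points above that of M12 (11.7% ± 1.36). Psmb9 made 3.27%, 4.56% and 4.27% of Psmb9 and Psmb6 in M11, and 0.401%, 0.909% and 0.661% in M12, a difference of 3.38 points. Psmb10 made 5.93%, 5.77% and 5.50% of Psmb10 and Psmb7 in M11, and 4.01%, 4.81% and 3.46% in M12, a difference of 1.64 points. From counts not scaled for length the Psmb9 difference was 5.65 points and the Psmb10 difference 0.996 points. None of the 3 shares overlapped between the lines, and each had an exact two-sided permutation p of 0.1, the smallest that 3 libraries against 3 can give. Psmb7 itself was lower in M11 (log2 fold change -0.19, edgeR adjusted p = 0.0329), which enters the Psmb10 share.

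In the parental cells the shares were 10.5% ± 1.88 for Psmb8, 1.12% ± 0.553 for Psmb9 and 9.35% ± 0.331 for Psmb10 (SD, n = 3). The Psmb8 and Psmb9 shares of M12 overlapped the parental ones, and its Psmb10 share lay below them. The vehicle group had shares of 24.3% ± 2.29 for Psmb8, 0.738% ± 0.113 for Psmb9 and 12.2% ± 3.21 for Psmb10. M11 and the vehicle group thus overlapped in the Psmb8 share and not in the Psmb9 share. The TPM ratio of Psmb8 to Psmb9 was 5.03 ± 0.373 in M11, 13.3 ± 3.01 in M12 and 31.1 ± 2.85 in the vehicle group.

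**Figure D3:**
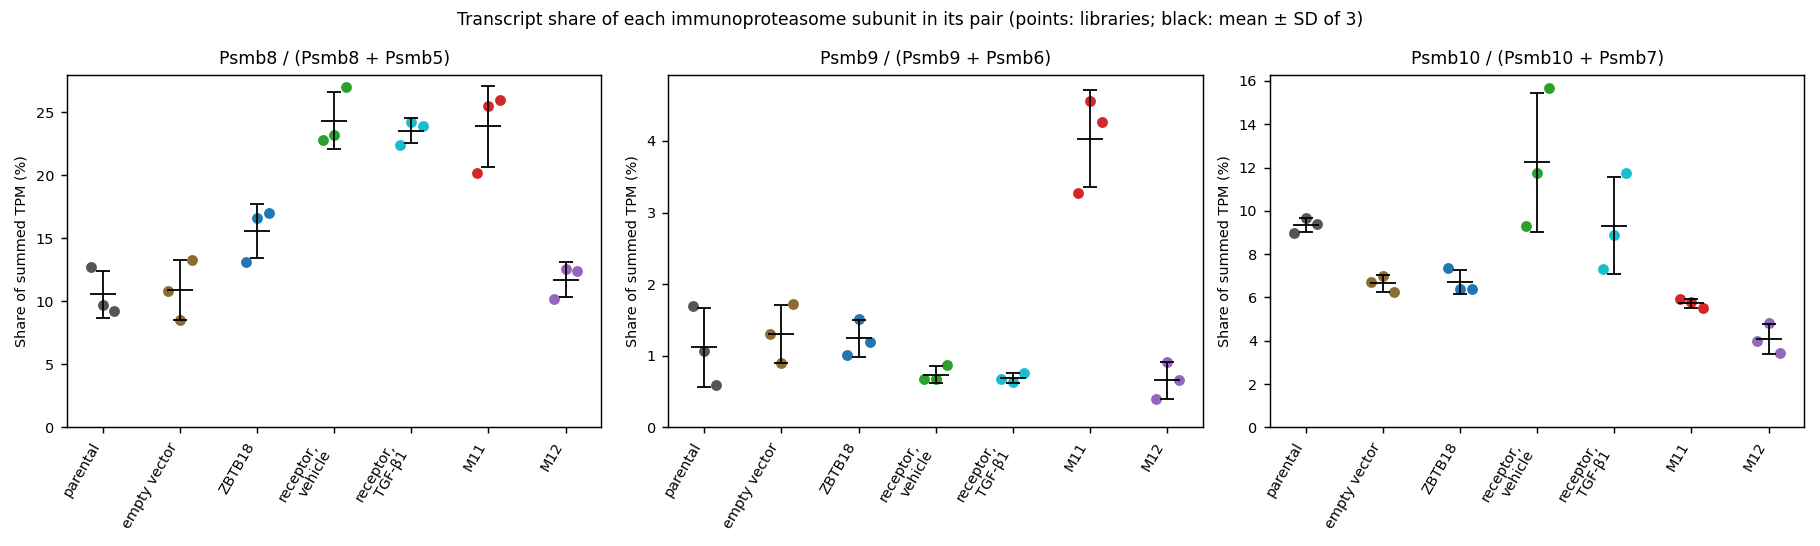
Share of each immunoproteasome subunit in the summed TPM of itself and its standard counterpart (vertical axis, percent, from 0) in the 7 groups (horizontal axis); points are libraries and black bars the mean ± SD of 3. The Psmb8 share was at least 20.2% in all libraries of M11 and of both receptor groups, while the Psmb9 share was at least 3.27% in the M11 libraries and at most 1.72% in every other library.

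Overexpression of ZBTB18 was compared with the empty vector, 1 line against 1 line. Of the 10 genes, 0 were higher and 2 were lower, the 2 heavy chains, where 14% of all tested genes were higher and 14.5% lower, 28.4% in all. The median log2 fold change of the 10 genes was -0.09, against 0.00643 over all tested genes. H2-K1 was at 26.6, 42.7 and 38.6 CPM with ZBTB18 and at 59.2, 46.3 and 73.6 CPM with the empty vector. The groups did not overlap, but ZBTB18 replicate 2 was near empty vector replicate 2, and the log2 fold change was -0.73 (SE 0.24, edgeR adjusted p = 0.0291). H2-D1 was at 422, 493 and 496 CPM with ZBTB18 and at 602, 551 and 680.2 CPM with the empty vector, again without overlap (log2 fold change -0.38, SE 0.13, edgeR adjusted p = 0.031).

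Neither heavy chain call was firm. That of H2-K1 was lost in 7 of 16 alternatives, with adjusted p up to 0.134, and that of H2-D1 in 6 of 16, with adjusted p up to 0.148. Both were lost without empty vector replicate 1, without empty vector replicate 3, without ZBTB18 replicate 1 and on TPM, where 0 of the 10 genes passed. H2-K1 was also lost without ZBTB18 replicate 3 and H2-D1 without ZBTB18 replicate 2. B2m differed by -0.21 (SE 0.14, adjusted p = 0.304) and Nlrc5 by -0.25 (SE 0.15, adjusted p = 0.226), neither past the threshold. Psmb8, at 25.2, 30.0 and 32.2 CPM against 22, 16.9 and 27.7 CPM, was the nearest to passing in the other direction (log2 fold change 0.39, SE 0.16, edgeR adjusted p = 0.071) and passed without empty vector replicate 3 and without ZBTB18 replicate 1. Tap1, Tap2, Tapbp, Psmb9 and Psmb10 lay between -0.11 and 0.17 on the log2 scale, and none passed. ZBTB18 replicate 1 was the lowest of its 3 libraries for 9 of the 10 genes (39% of all tested genes). Empty vector replicate 3 was the highest of its 3 for 8 of 10 (33.5%), and replicate 2 the lowest for 8 of 10 (37.1%). The part of this spread in the heavy chain differences was not tested. The summed interferon-induced level was 157 to 173 TPM with ZBTB18 and 231 to 292 TPM with the empty vector; its part in the heavy chain differences was not tested.

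Adding TGF-beta1 to cells with the receptor moved none of the 10 genes past the threshold. By edgeR 0 passed at adjusted p under 0.05, 0 at an unadjusted p under 0.05, and DESeq2 and limma-voom also called 0, where edgeR called 1.91% of all tested genes (1.26% higher and 0.654% lower). The log2 fold changes lay between -0.28 for Psmb10 (SE 0.21, edgeR adjusted p = 0.685) and 0.13 for Psmb9 (SE 0.28, adjusted p = 0.943). B2m was at 198, 255 and 269 CPM with TGF-beta1 and at 233, 287 and 310.4 CPM with vehicle, with overlapping ranges (-0.20, SE 0.14, edgeR adjusted p = 0.648). Within each same-numbered pair of libraries, B2m, Psmb10 and Nlrc5 were at a lower level with TGF-beta1, and none of the 3 passed with the replicate number as a block (edgeR adjusted p = 0.609, 0.636 and 0.931). For the heavy chains both differences were -0.09, with SE of 0.24 for H2-K1 and 0.13 for H2-D1. With SE between 0.11 for Tap2 and 0.28 for Psmb9, small differences would not have been seen. The shared replicate numbers of these 2 groups, fitted as a block, also gave 0 higher and 0 lower. In both groups replicate 3 was the highest of its 3 libraries for 9 of the 10 genes, and replicate 1 the lowest for 8. Over all tested genes these shares were 34.4% and 34.7% with vehicle, and 34.6% and 29.9% with TGF-beta1.

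Both receptor groups lay apart from all 5 other groups in Tap2 and Tapbp, at higher levels, and in Nlrc5, at a lower level; for the other 7 genes at least 1 receptor group overlapped another line. The vehicle group had 4 of the 10 genes higher and 2 lower than ZBTB18 overexpression without the receptor, where 19.5% of all tested genes were higher and 19.3% lower, 38.8% in all. Tapbp was at 180.3, 249 and 294 CPM in the vehicle group and at 55.5, 75.5 and 79.2 CPM in the ZBTB18 group. Every vehicle library was far above every ZBTB18 library, a log2 fold change of 1.78 (SE 0.26, edgeR adjusted p = 5.7e-05). Psmb10 was at 18.6, 25.7 and 37.3 CPM in the vehicle group and at 12.6, 11.5 and 11.9 CPM in the ZBTB18 group. Its vehicle libraries were spread widely and all lay above the ZBTB18 libraries (log2 fold change 1.18, SE 0.22, edgeR adjusted p = 0.000286). Tap2 was at 112, 135 and 142 CPM in the vehicle group and at 63.7, 74.4 and 80.6 CPM in the ZBTB18 group, higher by 0.83 (log2, SE 0.12, edgeR adjusted p = 8.0e-06). Psmb8, at 42.2, 48.4 and 57.5 CPM in the vehicle group, was higher by 0.76 (log2, SE 0.16, edgeR adjusted p = 0.00069). None of these 4 overlapped between the groups.

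Nlrc5 and Psmb9 went the other way. Nlrc5 was at 6.05, 7.01 and 7.86 CPM in the vehicle group and at 18.4, 24.1 and 21.6 CPM in the ZBTB18 group, a 3.08-fold lower level without overlap (log2 fold change -1.62, SE 0.15, edgeR adjusted p = 4.5e-08). Psmb9 was at 1.77, 1.71 and 2.17 CPM in the vehicle group and at 3.25, 4.98 and 4.16 CPM in the ZBTB18 group (log2 fold change -1.14, SE 0.28, edgeR adjusted p = 0.00266). H2-D1 (-0.30, SE 0.13, adjusted p = 0.0703), B2m (-0.31, SE 0.14, adjusted p = 0.0971), H2-K1 (0.29, SE 0.24, adjusted p = 0.366) and Tap1 (0.11, SE 0.26, adjusted p = 0.771) did not pass. In the receptor groups the regulator of class I transcription was therefore at its lowest mean of all 7 groups, while Tap2, Tapbp and Psmb10 were at their highest.

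The empty vector line differed from its parental line in 2 of the 10 genes, both higher, where 28.9% of all tested genes were higher, 29% lower and 58% either. H2-D1 was higher by 0.47 (log2, SE 0.13, edgeR adjusted p = 0.00388) and Tap2 by 0.36 (SE 0.12, adjusted p = 0.0124), and the libraries did not overlap for either. The Tap2 call was lost without empty vector replicate 3 (adjusted p = 0.0579). Psmb10 was at 12.1, 13.5 and 12 CPM, below all parental libraries, but did not pass (-0.46, SE 0.22, edgeR adjusted p = 0.0806). The 2 of 10 genes that differed are fewer than the 58% of all tested genes, while 13 of the 14 interferon-induced genes were lower with the empty vector, beside 29% of all tested genes.

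The order of the group means shows the same split. For Psmb9 M11 came first (11.5 ± 0.76 CPM), apart from the empty vector, ZBTB18 and parental groups (4.33, 4.13 and 3.94 CPM), which overlapped each other. The TGF-β1, vehicle and M12 groups came last (2.05, 1.89 and 1.87 CPM) and also overlapped. For Nlrc5 the order ran from M11 (29.9 CPM) through empty vector (25.4), ZBTB18 (21.4) and parental (20.7), each overlapping the next, to M12 (12.3), which overlapped no group, and then the vehicle and TGF-β1 groups (6.97 and 6.63 CPM). Tap1 put M12 alone at the bottom (19.9 ± 5.90 CPM), and its other 6 groups, from 50.7 to 36.1 CPM, each overlapped their neighbour. For H2-K1, H2-D1 and B2m, every group overlapped its neighbour in the order.

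Over the 7 group means of log2 CPM, Nlrc5 varied most closely with B2m (Pearson r = 0.943), H2-D1 (0.893) and Psmb9 (0.843), and inversely with Tapbp (-0.921). Tapbp went with Tap2 (0.869) and Psmb10 (0.843), and Tap2 with Psmb8 (0.806). Psmb8 and Psmb9, whose genes lie on either side of Tap1, had an r of only 0.142, and Tap1 and Tap2 of 0.26. These are descriptions over 7 points that share libraries, and 2 of the points are cells with the same receptor construct. The genes whose group means were most like the average of the 10, among 9606 genes that averaged at least 5 CPM over the 21 libraries (predicted genes left out), were Chpt1 (r = 0.985), Dnajb1 (0.981), Eogt (0.946) and Zfp248 (0.929). Mpp1, Rufy4, Fuk and P3h4 followed, at 0.925 to 0.918. Over the 21 libraries the r was lower for all 8, between 0.545 for Dnajb1 and 0.817 for Fuk. They were picked for following an average that is highest in M11 and lowest in M12, so that order is not a result; Chpt1, which encodes a cholinephosphotransferase, was at 20.4 CPM in M11 and 4.99 CPM in M12.

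Other genes of the pathway were followed with lists written from general knowledge of their roles. In M11 against M12, 2 of 9 tested other class I heavy chain genes were higher and 0 lower: H2-T10 (log2 fold change 1.20, edgeR adjusted p = 0.00191) and H2-T22 (0.45, adjusted p = 0.00833). The 2 of 9 is near the 17.7% of all tested genes that were higher. Of 6 peptide trimming and loading partners, such as the aminopeptidase gene Erap1 and the chaperone gene Calr, 0 passed, beside 35.5% of all tested genes. Their median log2 fold change was -0.08. Of 19 other proteasome genes, 0 were higher and 2 were lower, beside 17.7% and 17.8% of all tested genes. These 2 were the assembly factor gene Pomp (-0.39, edgeR adjusted p = 0.00827) and Psmb7 (-0.19).

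The class I promoter factors went both ways: 3 of 11 were higher in M11 and 3 lower, beside 17.7% and 17.8% of all tested genes. Rfxank and Rfx5, subunits of the RFX complex that binds the X box, were higher by 0.76 (log2, edgeR adjusted p = 9.3e-05) and 0.69 (adjusted p = 0.0023). Relb and Nfkb2, of the NF-κB family, were lower, with log2 fold changes of -1.15 (edgeR adjusted p = 0.0307) and -0.58 (adjusted p = 0.0426). Among 12 genes of interferon-γ signalling, 4 were higher and 1 lower, beside the same 17.7% and 17.8%. Irf9 was at 19.3, 37.6 and 27.4 CPM in M11 and at 5.62, 8.81 and 5.58 CPM in M12, a log2 fold change of 2.06 (edgeR adjusted p = 0.000224) without overlap. Socs1, a feedback inhibitor of cytokine signalling, was higher by 0.56 (log2, edgeR adjusted p = 0.00327), while the kinase gene Jak2 was lower, at -0.56 (adjusted p = 0.000177).

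Of the 14 interferon-induced genes, 7 were higher in M11 and 0 lower, beside 17.7% and 17.8% of all tested genes. Their median log2 fold change was 1.49, also with Iigp1 set at its bound. Iigp1, an immunity-related GTPase gene, had 30 reads in M11 and 0 in M12, so it was at least 12.4-fold higher against a floor of 3 counts over the M12 group. Irf7 (log2 fold change 2.40, edgeR adjusted p = 0.0244), Gbp7 (2.38, adjusted p = 0.000193) and Oasl2 (2.19, adjusted p = 0.0352) followed. Of the 3 class II genes tested, H2-DMb1 (1.18, edgeR adjusted p = 7.0e-06) and H2-DMa (0.52, adjusted p = 0.0286) were higher and 0 lower, beside 17.7% and 17.8% of all tested genes. Both encode the class II peptide editor, and the classical class II genes were at or near 0 in every library.

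**Figure D4:**
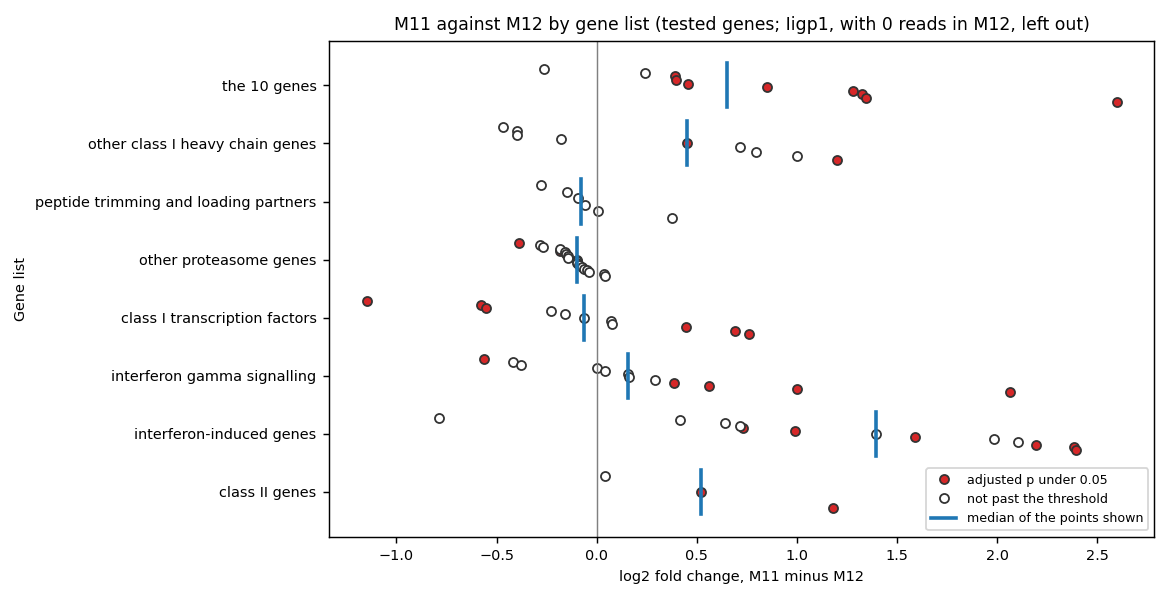
Log2 fold change in M11 minus M12 (horizontal axis) of the tested genes of 8 lists (vertical axis). Iigp1, with 0 reads in M12, is left out. Red points passed the edgeR threshold, open points did not, and the blue bar is the median of the points shown. The 10 genes and the interferon-induced genes have medians to the right of 0, while the loading partners and the other proteasome genes have medians of -0.08 and -0.10.

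The position of the genes in the MHC was set beside these values. Between the start of Tapbp and the end of H2-D1 on chromosome 17, 67 tested genes belonged to none of the lists; this set was chosen after the values of the 10 genes were known. In M11 against M12, 10 of these 67 were higher and 10 lower, or 29.9% in all, against 35.5% of all tested genes, and their median log2 fold change was 0.05. The 7 genes of the 10 that lie in this stretch had 6 higher and 0 lower, beside 17.7% and 17.8% of all tested genes. The part of position in the difference between M11 and M12 was not tested.

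In the other comparisons the interferon-induced genes and the 10 genes did not always go the same way. Against the parental cells, 0 interferon-induced genes were higher and 9 of 14 lower in M11 (Isg15 at -2.85, log2), beside 20% of all tested genes, where 4 of the 10 genes were higher. In M12, 0 were higher and 12 of 14 lower, beside 25.2% of all tested genes, with Oasl2 at -4.74. With ZBTB18, 4 of 14 were lower than with the empty vector, among them Igtp (-1.59) and Gbp7 (-1.58), and 0 higher, beside 14.5% and 14% of all tested genes. In the vehicle group 9 of 14 were higher and 1 lower than in the ZBTB18 group, with Gbp2 at 3.76 and Ifit2 at -3.01 (log2), beside 19.5% and 19.3% of all tested genes. With TGF-beta1, 0 of 14 passed in either direction, where only 1.91% of all tested genes passed. The proteasome activator genes Psme2 (0.85) and Psme1 (0.76) were higher in the vehicle group than in the ZBTB18 group, as were the loading partner Tapbpl (1.63), the aminopeptidase gene Erap1 (1.08) and, among the promoter factors, Relb (1.83) and Nfkb2 (0.97), all on the log2 scale by edgeR.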

How the data were processed

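The members and gene lists were chosen with earlier results of these data known. The authors deposited expected counts per gene from RSEM, not normalised, with TPM and FPKM, both scaled for transcript length; RSEM, STAR 2.7.1a, Trim Galore and GATK 4.1.2.0 are named with build mm10, per the submitters' processing notes, and the annotation release is not given in the sources used here. Libraries were polyA-enriched and stranded, per the labels' protocols. Expected counts were rounded (1.28% of deposited values were not whole); 92 spike-in entries were left out. In R 4.3.3, edgeR 4.0.16 was run with TMM scaling, its low-count filter by group (15432 genes) and the robust quasi-likelihood F-test, with 1 mean per group over 21 libraries (14 residual degrees of freedom). P-values are two-sided, with Benjamini-Hochberg adjustment over all tested genes. CPM are TMM-scaled, and a log2 fold change is the first group minus the second. SE is the absolute log2 fold change divided by the root of F. Shares of subunits used the deposited TPM (FPKM as an alternative) and exact permutation tests. The fit was tested on simulated counts.

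All 10 genes are named throughout; from each other list, up to 4 passing genes with the largest change are named in M11 against M12, and up to 2 in each other comparison, and the 8 genes of most similar pattern are named. A gene that this rule would name is not reported here. Irf9 libraries and the region set were looked at after values were seen. Same-numbered libraries deviated together in all 3 pairs in M11 against M12 (r = 0.129, 0.233 and 0.12) and in TGF-beta1 against vehicle (0.224, 0.124 and 0.273), so the numbers were taken to pair samples there; this comes from the data, not from the labels. Alternatives were DESeq2 1.42.0, its size factors, limma-voom (limma 3.58.1), limma on log2(TPM + 1) and log2(TPM + 0.1), no filter, a filter of 1 CPM in 3 libraries, a fit of only the 6 libraries compared, the replicate block, leaving out Gm42418 and leaving out each library. No batch is named in the labels.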

Additional observations from a re-analysis of the deposited data

Results flagged for a closer look

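For 7 of the 10 genes, the fitted M11 and M12 effects against the parental cells had opposite signs, and the difference between their 2 effects passed edgeR's test (Benjamini-Hochberg adjusted p under 0.05). The parental libraries cancel in that difference, so it equals the direct M11 minus M12 value. Of all tested genes, 35.5% passed in M11 against M12. The share that also had opposite signs was not counted, so the 7 of 10 stands without a background. Psmb9 differed by 2.60 on the log2 scale (effects of 1.54 in M11 and -1.06 in M12) and Nlrc5 by 1.28 (0.53 and -0.75); in these 2 genes both effects passed. Tap1 differed by 1.35 (0.01 and -1.34), nearly all of it in M12, and Psmb8 by 1.33 (1.29 and -0.03), nearly all of it in M11. H2-K1 differed by 0.85 (0.39 and -0.46), H2-D1 by 0.46 (0.30 and -0.15) and B2m by 0.40 (0.08 and -0.32), with no single effect of these 3 past the threshold. The smaller effects of 4 genes changed sign among the alternatives, so their 2 lines are not shown to lie on opposite sides: Tap1 in M11 ran from -0.29 to 0.40, Psmb8 in M12 from -0.17 to 0.26, B2m in M11 from -0.02 to 0.31 and H2-D1 in M12 from -0.23 to 0.13.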

How the results depend on the processing

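Over 7 comparisons, 10 genes and 16 alternatives each, 1057 of 1120 values kept their call, 30 lost it, 33 gained one, and 0 called values changed sign; 48 uncalled differences did. The cause of a change was not tested. Without the filter on low counts, the genes lower were 1 in M11 against M12 (Tapbp), 2 in M11 against parental, 6 in M12 against parental, 3 in empty vector against parental and 4 in vehicle against ZBTB18. In that fit 6 genes were higher in M11 against parental, and 1 gene was higher with ZBTB18 (Psmb8). H2-K1 was then also called higher in vehicle against ZBTB18. Fitting only the 6 libraries of a comparison gave 1 lower gene with ZBTB18 and 1 in empty vector against parental, and over all genes 3497 calls in M11 against M12, 4015 in M11 against parental, 5113 in M12 against parental and 1349 with TGF-β1, where the fit of all 21 libraries gave 5474, 6288, 7737 and 295. Limma on log2(TPM + 1) or log2(TPM + 0.1) gave 6 higher genes in M11 against M12, and 2 lower genes in M12 against parental and 0 with ZBTB18. With TGF-β1 the count over all genes was 633 without the filter, 596 by DESeq2, and 112 and 81 on TPM with pseudocounts of 1 and 0.1. From counts not scaled for length, the Psmb9 share differed by 5.65 points and the Psmb10 share by 0.996.

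Leaving out 1 library at a time gave 6 to 8 higher and 0 lower genes in M11 against M12, 4 to 5 higher and 1 lower in M11 against parental, 0 higher and 4 to 6 lower in M12 against parental, 0 to 1 higher and 0 to 2 lower with ZBTB18, 0 with TGF-β1 (71 to 183 over all genes), 1 to 3 higher and 0 to 1 lower in empty vector against parental, and 4 higher and 2 to 3 lower in vehicle against ZBTB18. With the replicate block, calls over all genes were 5857 in M11 against M12 and 411 with TGF-β1, and among the 10 genes only H2-D1 changed, lower in vehicle against ZBTB18, making 3 lower; there the libraries share only a number. Psmb9, Nlrc5 and Psmb10 had group means down to 1.87, 6.63 and 7.97 CPM, where fewer reads lie behind each value.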
